A study of Mus musculus with 6 samples.

Results

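The protein components of the cytosolic ribosome were followed in libraries from mice given rMANF or vehicle. Members were the rows of the expression table whose symbol has the form of an Rpl, Rps or Rplp gene, or is Rpsa, leaving out kinases of the Rps6k type and rows with a -ps (pseudogene) ending. This rule took 87 of 23494 genes and used names only, no measured value. Of the 87, 77 encode the standard proteins (31 of the small and 46 of the large subunit), 5 are paralogues that can stand in for a standard protein or resemble one, and 5 are pseudogenes in the GENCODE M21 annotation. The filter of a mean of at least 1 TPM (the usual length-corrected unit of transcript share, on which a library sums to a fixed total) kept 84 members, and Rpl32l, Rpl3l and Rpl39l fell below it.

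There were 2 groups of 3 libraries, all from wild-type female C57BL/6 mice with B16F10 melanoma, a transplantable mouse tumour line, under the skin. The rMANF group received recombinant MANF, a protein of the endoplasmic reticulum that cells can secrete, at 2 µg/kg by daily injection into the peritoneum once tumours averaged about 60 mm3, and the vehicle group received phosphate-buffered saline. The labels describe 8 mice randomised per group, biological replicates, and heart as the tissue of every library, and no age is given. The names of the vehicle columns begin with IgG, although the treatment given for those samples is saline.

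The ribosome joins a small subunit, which reads the mRNA, to a large subunit, which forms the peptide bonds and holds the exit tunnel for the new protein. Each subunit is built in the nucleolus from ribosomal RNA and about equal amounts of each of its proteins, so ribosomal protein genes are usually expressed together and at high levels in dividing and secreting cells. In vertebrates their mRNAs begin with a run of pyrimidines, the 5′ TOP motif, through which mTOR and LARP1 control their translation and stability. Free ribosomal proteins are degraded, and a few of them, led by Rpl5 and Rpl11, bind Mdm2 when ribosome assembly is disturbed and so act on p53.

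Whole-library facts that touch these genes were the following. The libraries labelled heart held little cardiac muscle RNA: 12 of 15 cardiac markers had rows, and their summed level was 8.59 to 12.4 TPM in rMANF libraries, against 8.26 to 68.7 TPM in vehicle libraries. Nppa, Actc1 and Pln did not pass 0.905 TPM in any library, and Myh6, Ryr2 and Nkx2-5 were not analysed here. Of 7 melanocytic markers, 3 had rows: Pmel did not pass 0.341 TPM and Sox10 0.160 TPM in any library, while Mitf had 7.36 to 12.2 TPM. The 16 macrophage markers summed to 2656 to 3822 TPM in rMANF libraries and 4779 to 5943 TPM in vehicle libraries. The 20 skeletal muscle markers summed to 150.5 to 172 TPM in rMANF libraries and 205 to 1537 TPM in vehicle libraries, of which vehicle replicate 2 was the highest. Most of the rMANF sums came from Eno3 alone. It had 146, 159 and 141 TPM in rMANF replicates 1 to 3 and 125, 172 and 170 TPM in vehicle replicates 1 to 3. The 12 markers of T and NK cells summed to 24.1 to 49.5 TPM with rMANF and 54.9 to 128 TPM with vehicle. The 8 endothelial markers lay the other way, at 84.3 to 105 TPM with rMANF and 46.7 to 76.9 TPM with vehicle. Mitochondrially encoded genes made up 2.38% ± 0.315 of the library with rMANF and 3.62% ± 0.397 with vehicle (SD, n = 3 each). The 10 markers of dividing cells summed to 1327 to 1371 TPM with rMANF and 1355 to 1455 TPM with vehicle. The sums of the B cell, neutrophil, fibroblast and erythroid markers overlapped between the groups. In such bulk RNA, fewer cells of a type and less RNA per cell cannot be told apart, and the part of these differences in the values below was not tested.

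Ribosomal protein transcripts made up nearly the same share of the libraries in both groups. The 87 genes summed to 30.8%, 29.8% and 32.6% of all TPM in rMANF replicates 1, 2 and 3, against 29.2%, 31.1% and 30.9% in vehicle replicates 1, 2 and 3. The groups overlapped, with means of 31.1% ± 1.39 for rMANF and 30.4% ± 1.06 for vehicle (SD, n = 3 each), a log2 ratio of 0.03 that was -0.01 after median-of-ratios scaling. The small subunit took 14.6% ± 0.678 with rMANF and 14.5% ± 0.316 with vehicle, and the large subunit 16.5% ± 0.716 with rMANF and 15.8% ± 0.742 with vehicle. The plot of library shares shows both subunits library by library. The 78 mitochondrial ribosomal proteins serve the separate ribosome of that organelle. They summed to 0.694% ± 0.0208 with rMANF and 0.726% ± 0.0498 with vehicle, and the groups overlapped.

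**Figure D1:**
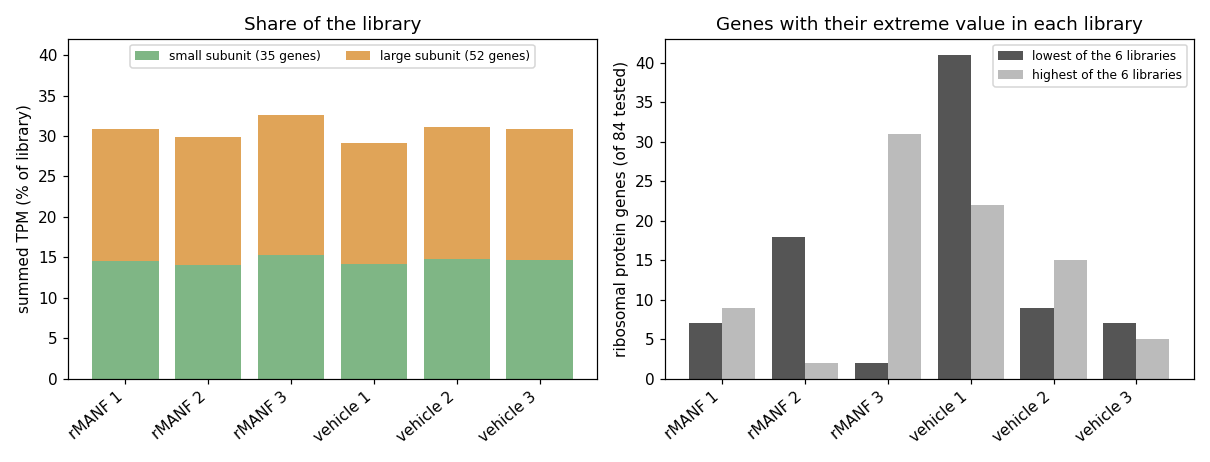
Left, summed TPM of the small- and large-subunit genes as a percentage of each library; right, the number of the 84 tested genes whose lowest or highest value fell in each library. The summed share lay between 29.2% and 32.6% in all 6 libraries, and vehicle replicate 1 held the lowest value of 41 genes and the highest of 22.

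Ribosomal protein genes filled 37 of the 50 highest places by mean TPM over all libraries, and 64 of the highest 100. Mean TPM of the 77 standard genes ran over a 76.1-fold range, with a median of 2946 TPM. At the top stood Rps27, a zinc-binding protein of the small subunit, with 21042, 20297 and 22397 TPM in rMANF replicates 1 to 3 and 21277, 21589 and 23267 TPM in vehicle replicates 1 to 3. The groups overlapped, with a log2 difference (rMANF minus vehicle, on log2(TPM + 1), as for every difference below) of -0.05 ± 0.08 (SE). Rpl13 had 10862, 10668 and 12220 TPM with rMANF and 8504, 11214 and 11006 TPM with vehicle, a difference of 0.14 ± 0.12. Rps18, of the head of the small subunit, had 10915, 10991 and 11308 TPM with rMANF and 9002, 10854 and 11198 TPM with vehicle, a difference of 0.10 ± 0.10. In both genes vehicle replicate 1 was the lowest library, and without it the differences were 0.02 for Rpl13 and 0.01 for Rps18. Rps21, the fifth by level, had 9905, 9628 and 11569 TPM with rMANF and 9345, 11394 and 10326 TPM with vehicle, overlapping groups with a difference of 0.00 ± 0.11.

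At the low end of the standard genes stood Rps15a, with 275, 268 and 279 TPM in rMANF replicates 1 to 3 and 307, 300.5 and 277 TPM in vehicle replicates 1 to 3. Rps20 had 380.3, 383.5 and 418.5 TPM with rMANF and 320.0, 430.5 and 401.2 TPM with vehicle. Both genes had overlapping groups. Many ribosomal protein genes have processed pseudogenes of near-identical sequence, so the authors' counting could split reads between copies and these levels are uncertain to that extent. The 141 rows with a -ps ending, left out by the rule, summed to 0.101% of the library with rMANF and 0.1105% with vehicle. The library kit does not mark strand, so transcripts overlapping on the other strand cannot be told apart either. The median within-group SD of the standard genes on the log2 scale was 0.0737 with rMANF and 0.118 with vehicle. It was 0.0388 between vehicle replicates 2 and 3, but an SD of 2 values tends to be lower than one of 3. Other pairs of vehicle libraries were not compared.

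**Figure D2:**
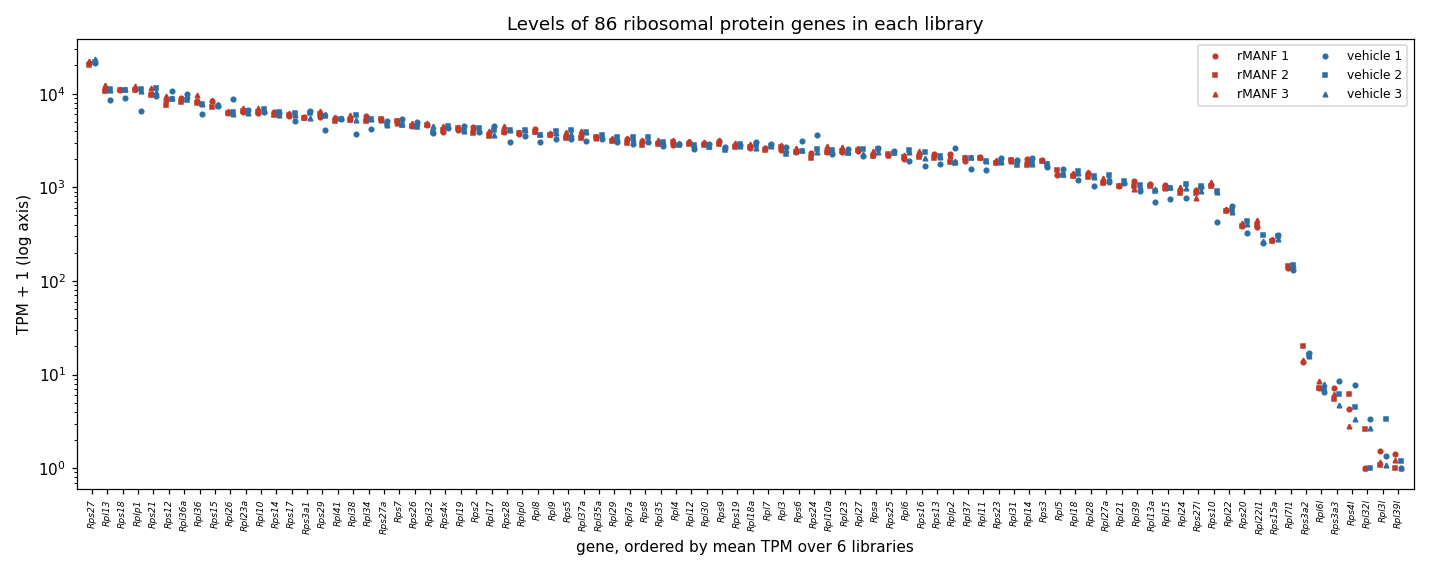
TPM plus 1 on a log axis for 86 of the 87 genes, ordered by mean level, with one point per library (red rMANF, blue vehicle, marker shape the replicate). The standard genes run over a 76.1-fold range and end at Rps15a. The pseudogenes Rpl6l, Rps3a2, Rps3a3, Rps4l and Rpl32l and the paralogues Rpl7l1, Rpl3l and Rpl39l lie below all of them.

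The start of the transcript carries the TOP motif, so the sequence around the start site is shown for members described below. RefSeq windows on GRCm38.p6 (250 bases before to 50 after the start) were at hand for 63 of the 87 members, 57 of them standard genes. A run of at least 8 C or T touching the 20 bases on either side of the start was found in 27 of the 57 (47.4%), against 5664 of 27025 genes with a window (21.0%), and the median longest run was 7 bases in standard genes against 5 in all. The letters CCGGAAG, the core bound by ETS factors such as GABP, stood on either strand of the 300-base window in 23 of the 57 (40.4%), against 9.18% of all genes. The letters AAGATGGC, the core bound by YY1, stood in 4 of the 57 (7.02%), against 2.86%. These cores can share the letters AAG, and the first one read on the other strand holds a short C/T run. Each line below gives 50 bases before and 25 bases after the start, 5′ to 3′ on the gene's strand, with the longest C/T run near the start in capitals. They lie at chr3:28805458-28805532 (plus strand, Rpl22l1), chr4:136053369-136053443 (minus, Rpl11), chr7:45128721-45128795 (minus, Rpl13a), chr7:3703991-3704065 (plus, Rps9), chr17:27635220-27635294 (minus, Rps10), chr14:24490628-24490702 (plus, Rps24), chr9:44407664-44407738 (plus, Rps25) and chr3:90213624-90213698 (minus, Rps27). The set joins the most abundant member with members that lay higher (the first 5) and lower (Rps24 and Rps25) with rMANF.
Rpl22l1: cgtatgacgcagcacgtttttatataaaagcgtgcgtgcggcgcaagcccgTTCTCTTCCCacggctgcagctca
Rpl11: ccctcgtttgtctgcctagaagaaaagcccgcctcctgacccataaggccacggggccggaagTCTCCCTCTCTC
Rpl13a: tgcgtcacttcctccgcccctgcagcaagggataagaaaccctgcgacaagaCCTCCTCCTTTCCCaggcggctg
Rps9: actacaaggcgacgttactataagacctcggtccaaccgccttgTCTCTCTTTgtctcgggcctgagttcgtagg
Rps10: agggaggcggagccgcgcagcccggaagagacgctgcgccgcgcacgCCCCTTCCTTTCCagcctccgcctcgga
Rps24: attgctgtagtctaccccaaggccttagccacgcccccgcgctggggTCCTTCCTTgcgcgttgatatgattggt
Rps25: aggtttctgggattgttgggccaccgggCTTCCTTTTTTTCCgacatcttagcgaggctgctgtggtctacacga
Rps27: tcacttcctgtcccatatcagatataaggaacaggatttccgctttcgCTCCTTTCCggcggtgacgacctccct

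The marked runs were 9 to 17 bases long in the 8 genes printed (that of Rpl11 runs on past the bases shown). Counting the first transcribed base as 1, the run crossed the start in Rps9, Rps10, Rps24 and Rps27 and began at base 2 in Rpl22l1 and base 3 in Rpl13a. That of Rpl11 began only at base 14, and that of Rps25 lay wholly before the start, ending at base -9. These 8 were picked for description and are no sample of the family. The ETS core stood in the windows of Rpl11, Rps10 and Rps25 among them, and the YY1 core in those of Rpl13a and Rps27.

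No ribosomal protein gene passed the test between the groups. With limma and Benjamini-Hochberg adjustment over all 12865 genes tested, 0 of 84 members had an adjusted p under 0.05, as had 0 of all genes (0% called). At an unadjusted limma p under 0.05 there were 6 members (7.14%), all higher with rMANF, against 20.5% of all genes tested, of which 13.9% lay higher and 6.63% lower. The median log2 difference was 0.01 over the members and 0.04 over all genes, and 50 members (59.5%) lay above 0, against 57.3% of all genes tested. Members stayed closer to 0 than genes at large: 71 of 84 (84.5%) differed by less than 0.2 on the log2 scale, as did 58.6% of all genes, most of which have far lower levels. The design of 3 against 3 libraries cannot give an exact permutation p below 0.1.

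The 3 rMANF libraries were each higher than the 3 vehicle libraries in 12 members (14.3%, against 18.9% of all genes) and each lower in 4 (4.76%, against 9.02%). The count of 12 was 11 or 12 under 3 of the 4 other scalings and 1, Rpl22l1, under the median of ratios, and without rMANF replicate 2 it was 19. The count of 4 was 11 without rMANF replicate 3, 10 without vehicle replicate 1 and 9 without vehicle replicate 3. Leaving out a library can only keep or raise either count. The shares over all genes were not counted under these alternatives, so the shifts are no result about the members. By subunit, 5 of 31 standard genes of the small subunit lay wholly above and 2 wholly below, with a median difference of 0.01, and 6 of 46 of the large subunit lay above and 2 below, with a median of 0.03. The plot of differences shows 83 of the 84 tested members.

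**Figure D3:**
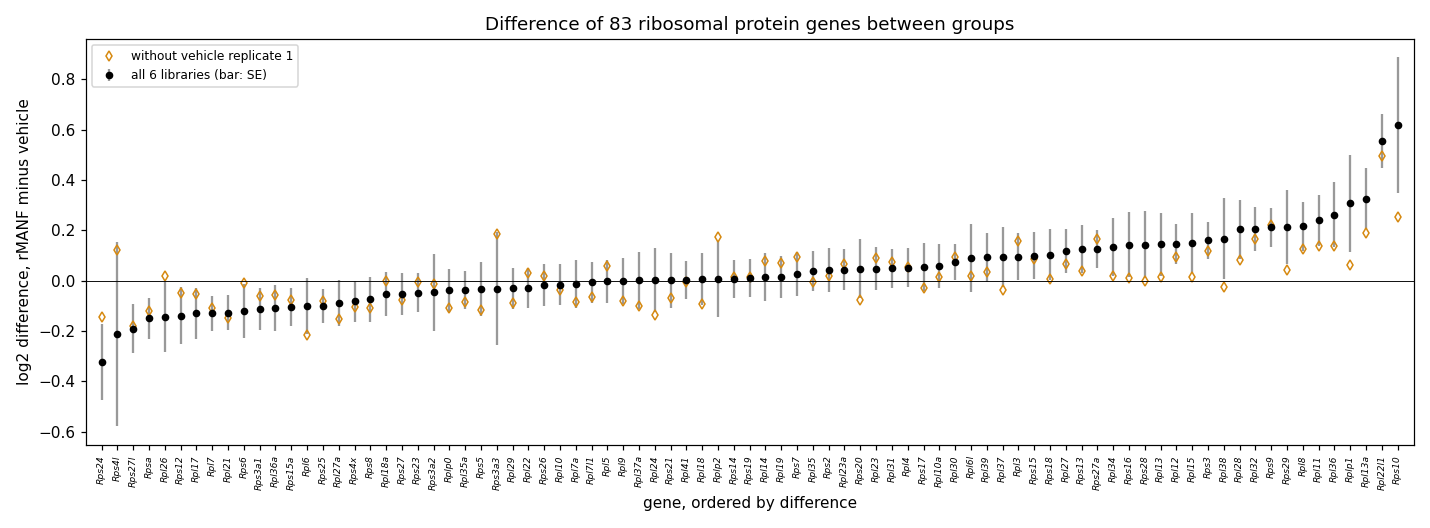
Log2 difference (rMANF minus vehicle) for 83 of the 84 tested genes, ordered by size, with the SE as a bar and the value without vehicle replicate 1 as an open diamond. The range is -0.32 for Rps24 to 0.62 for Rps10, both of which come nearer to 0 without vehicle replicate 1, while Rpl22l1 stays at 0.49.

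Vehicle replicate 1 stood apart in this family, and in the table as a whole vehicle replicates 1 and 2 both lay far out. Vehicle replicate 1 held the lowest value of 41 members (48.8%, against 17.2% of all genes) and the highest value of 22 (26.2%, against 33.0%). In it, 24 members (28.6%) lay more than 0.3 on the log2 scale from the mean of the other 5 libraries, against 33.5% of all genes tested. In vehicle replicate 2 that count was 0 members, although 31.8% of all genes lay that far out. That library held the lowest value of 37.7% of all genes tested. The rMANF replicate 3 library held the highest value of 31 members and the lowest of 2, and rMANF replicate 2 the lowest of 18 and the highest of 2. Over the 77 standard genes, which share these libraries, the distance of vehicle replicate 1 from the others went with transcript GC content (Spearman rho -0.35), as a description, and the log2 difference between groups went with GC content with rho 0.38, or 0.25 without that library. The part of GC content in the differences was not tested beyond the removal of its trend. With it removed, the difference of Rps10 was 0.54, that of Rpl13a 0.26 and that of Rps24 -0.25, while that of Rpl36 was 0.05, that of Rpl8 0.08, that of Rpl7 -0.07 and that of Rps25 -0.03.

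Among small-subunit proteins, Rps10 had the largest difference. Rps10 (chr17:27630418-27636669, minus strand), a head protein that ZNF598 ubiquitinates on stalled ribosomes in human cells, had 1064, 1029 and 1124 TPM in rMANF replicates 1 to 3 and 420.5, 910 and 888 TPM in vehicle replicates 1 to 3. All rMANF libraries lay above all vehicle libraries, but vehicle replicate 1 was far below the other 5. The difference was 0.62 ± 0.27 (limma, Benjamini-Hochberg adjusted p = 0.246), 0.25 without vehicle replicate 1 and 0.34 with library weights. Rps9 (chr7:3703993-3706897, plus strand), of the small-subunit body near the mRNA entry, had 3121, 2886 and 3165 TPM with rMANF and 2676, 2520 and 2725 TPM with vehicle. Here no single vehicle library stood out, and the difference of 0.21 ± 0.08 (limma, adjusted p = 0.184) was 0.22 without vehicle replicate 1. Rps3, at the mRNA entry and likewise ubiquitinated on stalled ribosomes, had 1967, 1916 and 1948 TPM with rMANF and 1645, 1778 and 1800 TPM with vehicle, a difference of 0.16 ± 0.07 without overlap (limma, adjusted p = 0.264) that was 0.07 after quantile normalization.

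Rps27a, made as a fusion to ubiquitin and named here after its values were seen, had 5375, 5312 and 5235 TPM with rMANF and 5152, 4784 and 4679 TPM with vehicle. Its groups did not overlap, with a difference of 0.12 ± 0.08 (limma, adjusted p = 0.394).

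The 4 members wholly lower with rMANF included Rps24 and Rps25 of the small subunit. Rps24 (chr14:24487125-24496959, plus strand), changed in some families with Diamond-Blackfan anaemia, had 2315, 2055 and 2341 TPM with rMANF and 3578, 2560 and 2380 TPM with vehicle. Vehicle replicate 1 was the highest library, and vehicle replicate 3 lay just above rMANF replicate 3. The difference was -0.32 ± 0.15 (limma, adjusted p = 0.277), or -0.14 without vehicle replicate 1 or with library weights. Rps25, which several viral internal ribosome entry sites need, had 2207, 2244 and 2221 TPM with rMANF and 2446, 2340 and 2367 TPM with vehicle. These were narrow groups that did not overlap, with a difference of -0.10 ± 0.07 (limma, adjusted p = 0.451) that was -0.03 with the GC trend and -0.04 with the length trend removed.

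In the large subunit, Rpl13a lay highest relative to vehicle among the standard proteins. Rpl13a (chr7:45125558-45128761, minus strand), which in human myeloid cells leaves the ribosome after interferon-gamma to silence inflammatory mRNAs, had 1082, 1026 and 1093 TPM with rMANF and 704, 917 and 953 TPM with vehicle. The groups did not overlap and vehicle replicate 1 was the lowest. The difference was 0.33 ± 0.12 (limma, adjusted p = 0.184), 0.19 without vehicle replicate 1 and 0.21 with library weights. Rpl36 had 8295, 7929 and 9668 TPM with rMANF and 6034, 7837 and 7799 TPM with vehicle. Its groups were separated by a small gap between rMANF replicate 2 and vehicle replicate 2, with a difference of 0.26 ± 0.13 (limma, adjusted p = 0.296) that was 0.14 without vehicle replicate 1, 0.17 with library weights and 0.05 with the GC trend removed.

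Rpl8, which reaches toward the peptidyl transferase centre, had 4156, 3875 and 3954 TPM with rMANF and 3038, 3641 and 3679 TPM with vehicle. The groups did not overlap, with a difference of 0.22 ± 0.10 (limma, adjusted p = 0.253), 0.13 without vehicle replicate 1 and 0.08 with the GC trend removed. Rpl32 had 4624, 4621 and 4807 TPM with rMANF and 3838, 3905 and 4476 TPM with vehicle, a difference of 0.20 ± 0.09 without overlap (limma, adjusted p = 0.231) that was 0.11 with library weights. Rpl3, also near that centre, had 2507, 2686 and 2819 TPM with rMANF and 2725, 2266 and 2525 TPM with vehicle, and its groups overlapped (difference 0.09 ± 0.09). Of the 4 proteins listed for the centre (Rpl3, Rpl4, Rpl8 and Rpl10), 3 had a difference above 0 (57.3% of all genes did) and 1 below, with 1 pair of groups that did not overlap. Of 9 proteins listed around the exit tunnel, 6 lay above and 3 below 0, beside the same share of all genes, and none had groups that did not overlap.

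Rpl7 and Rpl21 lay lower with rMANF. Rpl7, a protein of the large subunit near the 5S RNA, had 2612, 2523 and 2599 TPM with rMANF and 2910, 2780 and 2776 TPM with vehicle. Rpl21 had 1021, 1027 and 1058 TPM with rMANF and 1101, 1161 and 1131 TPM with vehicle. In both genes the libraries of each group lay close together and did not overlap. The difference was -0.13 ± 0.07 in each (limma, adjusted p = 0.338 in each), and -0.08 in each with the length trend removed.

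The P stalk is the flexible arm of the large subunit that recruits the elongation factors. Its tip protein Rplp1 had 11276, 10847 and 12212 TPM in rMANF replicates 1 to 3 and 6585, 11300 and 10609 TPM in vehicle replicates 1 to 3. Its partner in the same dimer, Rplp2, had 2274, 1842 and 2180 TPM with rMANF and 2619, 1798 and 1912 TPM with vehicle. Vehicle replicate 1 was thus the lowest library for Rplp1 and the highest for Rplp2, and both pairs of groups overlapped. Their differences were 0.31 ± 0.19 for Rplp1 (limma, adjusted p = 0.411), which was 0.06 without vehicle replicate 1, 0.19 with the GC trend removed and 0.15 with library weights, and 0.01 ± 0.15 for Rplp2, which was 0.17 without it. Rplp0, the base of the stalk, had 3720, 3795 and 3937 TPM with rMANF and 3561, 4096 and 4130 TPM with vehicle, overlapping groups with a difference of -0.04 ± 0.09. Rpl12, which also sits at the base, had 3038, 2918 and 3106 TPM with rMANF and 2542, 2839 and 2827 TPM with vehicle, and its groups did not overlap, with a difference of 0.14 ± 0.08 (limma, adjusted p = 0.347) that was 0.09 without vehicle replicate 1.

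Rpl5 and Rpl11 travel together with 5S ribosomal RNA and bind Mdm2 as that particle. Rpl11 (chr4:136028265-136053428, minus strand) had 2107, 2061 and 2128 TPM with rMANF and 1539, 1923 and 1896 TPM with vehicle, without overlap, a difference of 0.24 ± 0.10 (limma, adjusted p = 0.230) that was 0.14 without vehicle replicate 1. Rpl5 had 1366, 1517 and 1403 TPM with rMANF and 1557.5, 1363 and 1378 TPM with vehicle. Its groups overlapped, with a difference of 0.00 ± 0.09. Of 18 genes in which changes are known in Diamond-Blackfan anaemia, 11 lay above 0 and 7 below, against 57.3% of all genes above 0. Of the 18, 2 lay wholly above vehicle and 1 wholly below, against 18.9% and 9.02% of all genes.

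The paralogue Rpl22l1 had the smallest p of all members. Rpl22l1 (chr3:28805436-28807424, plus strand) is the close relative of Rpl22, and in mouse cells Rpl22 protein holds the Rpl22l1 transcript down. It had 373, 399 and 447 TPM in rMANF replicates 1 to 3 and 253, 310.4 and 266 TPM in vehicle replicates 1 to 3. All rMANF libraries lay above all vehicle libraries, with means of 406 ± 37.4 TPM for rMANF and 277 ± 30.0 TPM for vehicle (SD, n = 3 each). The difference was 0.55 ± 0.11 (limma, adjusted p = 0.0893, a value that other genes such as Eef2 shared), which missed the threshold. It was 0.48 to 0.70 over the alternatives tried, with an adjusted p between 0.0260 (limma with library weights, the only member so called, or 1.19% of members against 5.73% of all genes) and 0.281.

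Rpl22 itself had 569, 560 and 578 TPM with rMANF and 630, 564 and 549 TPM with vehicle. Its groups overlapped, with a difference of -0.03 ± 0.08. Rpl22l1 thus stood at 65.6%, 71.3% and 77.3% of the Rpl22 level in rMANF replicates 1 to 3, against 40.2%, 55.0% and 48.4% in vehicle replicates 1 to 3, both levels in TPM. These ratios did not overlap between the groups, which restates the Rpl22l1 values beside a nearly level Rpl22 and is no separate result.

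Rps27l, a paralogue of Rps27 that p53 raises in human cells, had 946, 869 and 766 TPM with rMANF and 995, 1030 and 917 TPM with vehicle. Its groups overlapped, since rMANF replicate 1 lay above vehicle replicate 3, and the difference was -0.19 ± 0.10 (limma, adjusted p = 0.311), -0.11 without rMANF replicate 3, -0.12 with library weights, and -0.09 and -0.13 with the GC and length trends removed. It stood at 4.49%, 4.28% and 3.42% of the Rps27 level with rMANF and 4.67%, 4.77% and 3.94% with vehicle. Rpl7l1 had 136, 142 and 141 TPM with rMANF and 129, 146 and 147 TPM with vehicle, overlapping groups with a difference of -0.01 ± 0.08.

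The tissue-restricted paralogues were near 0. Rpl3l, which replaces Rpl3 in heart and skeletal muscle, had 0.516, 0.0860 and 0.175 TPM with rMANF and 0.345, 2.38 and 0.0841 TPM with vehicle. Its highest value was in vehicle replicate 2, the library with the highest sum of skeletal muscle markers. Rpl39l, known from male germ cells, had 0.414 and 0.211 TPM in rMANF replicates 1 and 3 and 0.198 TPM in vehicle replicate 2, and was listed at 0 in the other 3 libraries. Of the annotated pseudogenes, Rpl32l lay just under the filter, at a mean of 0.946 TPM, and Rps4l was the member with the lowest mean inside it, at 3.83 TPM. Rps4l had 3.27, 5.21 and 1.85 TPM with rMANF and 6.79, 3.47 and 2.38 TPM with vehicle, overlapping groups with a difference of -0.21 ± 0.37. The core proteins of Rpl39l and Rps4l did not separate either: the difference was 0.09 ± 0.10 for Rpl39 and -0.08 ± 0.08 for Rps4x.

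**Figure D4:**
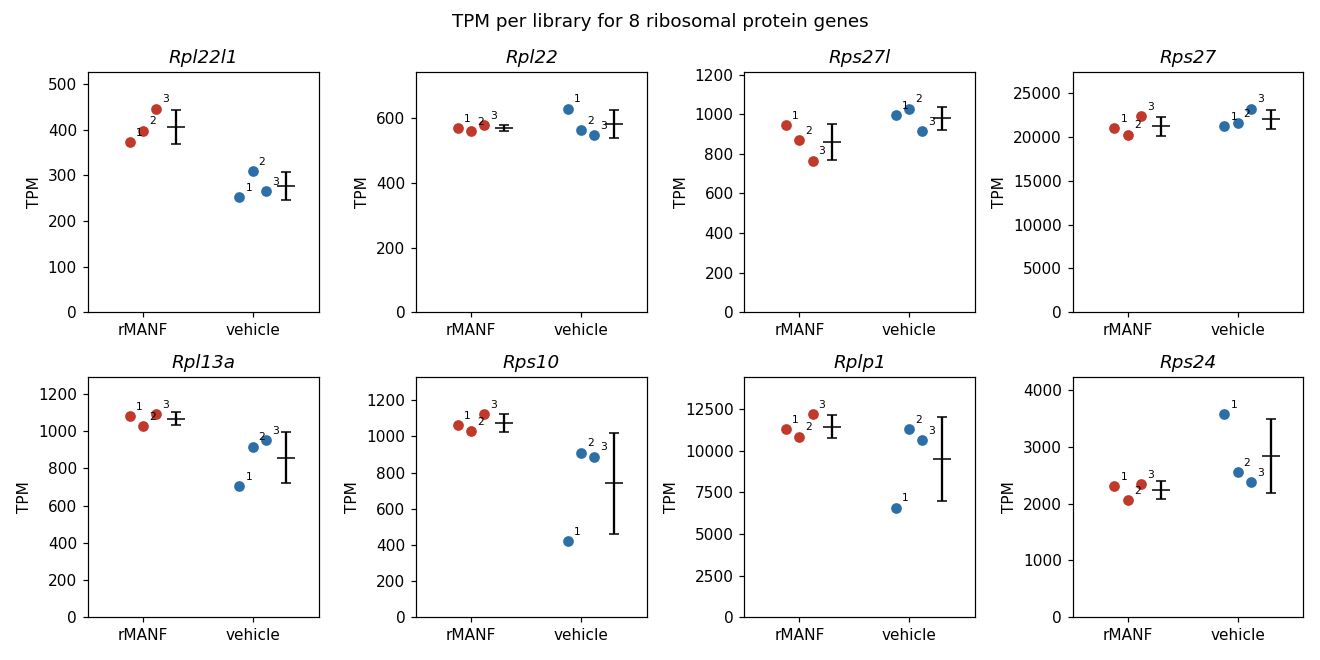
TPM in each library (numbers are replicates) for 8 members, with the group mean and SD beside the points; every axis starts at 0. Rpl22l1 is separated between rMANF and vehicle while Rpl22 is not, and vehicle replicate 1 is the outlying point in Rpl13a, Rps10, Rplp1 and Rps24.

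A few ribosomal proteins carry names outside the symbol rule, and 3 of them are described. Rpl36al had 330, 354 and 378 TPM with rMANF and 121, 355 and 333 TPM with vehicle. Vehicle replicate 1 lay far below the other 5 libraries, and the difference of 0.54 ± 0.36 was 0.04 without that library, 0.81 without vehicle replicate 2 and 0.17 with library weights. Fau, a fusion of a ubiquitin-like protein and a small-subunit protein, had 4861, 4372 and 5323 TPM with rMANF and 3345, 5001 and 4517 TPM with vehicle, a difference of 0.19 ± 0.15 with overlap that was 0.03 without vehicle replicate 1, 0.12 without rMANF replicate 3, 0.32 without vehicle replicate 2, 0.05 with the GC trend removed and 0.11 with library weights. Rack1, a signalling scaffold on the head of the small subunit, had 2215, 2344 and 2442 TPM with rMANF and 2123, 1750 and 1904 TPM with vehicle. Its groups did not overlap, with a difference of 0.28 ± 0.09 (limma, adjusted p = 0.159) that was 0.35 without vehicle replicate 1.

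Genes that make, assemble and use ribosomes were followed in 9 lists, in which 0 genes passed the limma threshold of 0.05. The list counts below are to be read beside all genes tested. Of those, 13.9% lay higher and 6.63% lower at an unadjusted limma p under 0.05. Of 18 genes for elongation and other TOP mRNAs, 3 had an unadjusted limma p under 0.05, all higher with rMANF, and the median difference was 0.07. Eef2, the translocase of elongation, had 2371, 2255 and 2565 TPM with rMANF and 1614, 1612 and 1885 TPM with vehicle. The groups were well apart, with a difference of 0.49 ± 0.09 (limma, adjusted p = 0.0893), while Eef1a1, the carrier of aminoacyl-tRNA, differed by 0.08 ± 0.08. Eif3f and Eif4b, both of initiation, differed by 0.28 ± 0.09 each.

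Of 28 initiation factors, 6 had an unadjusted p under 0.05, all higher with rMANF, with a median of 0.02. The 3 of smallest p were Eif4g1, the scaffold of the cap-binding complex (0.32 ± 0.08), Eif4h, a helper of the eIF4A helicase (0.25 ± 0.07), and Eif4ebp2, a repressor of cap binding under mTOR control (0.32 ± 0.10). Of 48 ribosome biogenesis genes, 7 lay higher and 0 lower at that p, with a median of 0.06. Bysl, of small-subunit assembly, had 28.0, 27.5 and 27.3 TPM with rMANF and 21.8, 21.2 and 21.7 TPM with vehicle, without overlap (difference 0.34 ± 0.08, limma adjusted p = 0.09999). The large-subunit factors Ddx56 and Ftsj3 differed by 0.35 ± 0.09 and 0.34 ± 0.10.

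Of 15 genes for RNA polymerase I, 3 lay higher and 0 lower at an unadjusted p under 0.05, with a median of -0.03. Ubtf, which opens ribosomal DNA for transcription, differed by 0.38 ± 0.10, and the polymerase subunits Polr1b and Cd3eap by 0.21 ± 0.09 and 0.25 ± 0.10 (0.14 for Cd3eap with library weights). Of 19 genes that control ribosomal protein mRNAs, 6 lay higher and 0 lower, with a median of 0.12. Larp1, the TOP-binding protein, had 63.0, 74.2 and 68.6 TPM with rMANF and 57.3, 44.4 and 53.2 TPM with vehicle. Its groups did not overlap, with a difference of 0.41 ± 0.12 (limma, adjusted p = 0.128). Mlst8, a subunit of both mTOR complexes, differed by 0.31 ± 0.10 and Mxd4, an antagonist of Myc, by 0.53 ± 0.13, or 0.34 with library weights.

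Of 10 genes listed for chaperones and import carriers of ribosomal proteins, 3 lay higher and 0 lower, with a median of 0.19. They were Aamp (0.21 ± 0.07, or 0.08 with the GC trend removed), Aarsd1 and Heatr3, which carries Rpl5 in human cells (0.20 ± 0.08). Aarsd1 differed by 0.54 ± 0.19, or 0.33 without vehicle replicate 1, 0.32 with a pseudocount of 5 TPM and 0.28 with library weights. Its place in the list is no evidence of such a role. Of 14 genes for quality control on stalled ribosomes, 3 lay higher and 0 lower, with a median of 0.15. Zfp598, the ligase that marks Rps10, had 43.7, 44.7 and 41.0 TPM with rMANF and 31.5, 30.7 and 35.3 TPM with vehicle, without overlap (difference 0.40 ± 0.09, or 0.23 with the GC trend removed, limma adjusted p = 0.0986). Pelo, which rescues stalled ribosomes, differed by 0.45 ± 0.10 and Gcn1l1, an activator of the Gcn2 kinase, by 0.34 ± 0.12, or 0.19 with the GC trend removed and 0.20 with library weights.

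Of 12 host genes of small nucleolar RNAs, 1 lay higher, Snhg8 (0.38 ± 0.10), while Gas5 differed by -0.26 ± 0.15 and Zfas1 by 0.26 ± 0.13. The difference of Gas5 was -0.08 without vehicle replicate 1, -0.40 without vehicle replicate 2 and -0.15 with the GC trend removed. That of Zfas1 was 0.17 without rMANF replicate 3, 0.16 without vehicle replicate 2 and 0.13 with library weights. Of 12 p53 targets tested, 4 lay higher and 0 lower, with a median of 0.01. Bbc3, a promoter of apoptosis, differed by 0.35 ± 0.09, a sign that turned to -0.09 with the GC trend removed, Phlda3 by 0.38 ± 0.10, or 0.13 with that trend removed, and Zmat3 by 0.33 ± 0.13, or 0.21 with a pseudocount of 5 TPM. Every list had members on both sides of 0, and these shares stand beside 13.9% higher and 6.63% lower over all genes tested at the same p. Of the 78 mitochondrial ribosomal proteins, 5 lay higher and 8 lower at that p, with a median of -0.03, and mitochondrially encoded genes lay lower with rMANF in the same libraries, as given above.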

How the data were processed

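RNA was measured in 6 libraries, 3 rMANF and 3 vehicle. Per the labels' protocols, QIAzol served for RNA extraction and the Nextera XT kit for library construction. The tools named per the submitters' processing notes are HTSeq 0.11.0, Salmon 0.14.1, fastp and cutadapt, with build mm10, and their roles are not given. In 1 table the authors deposited log2 TPM for 23494 genes. Values were returned to TPM, with the deposited value of -9 taken as 0 TPM. TPM keeps no depth, so depth is unknown and no counting interval is given.

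Values entered the tests as log2(TPM + 1), a scale that shrinks differences of weakly expressed genes. A mean of 1 TPM or more over the libraries left 12865 genes, fitted together with limma 3.58.1 in R 4.3.3 (variance trend with the mean, two-sided, Benjamini-Hochberg adjustment, threshold 0.05), and the procedure was tested on simulated data. The p-values measure only the spread between these libraries. Named members were the 10 of smallest p among those with groups that did not overlap in each direction, the 5 of highest level, the 5S particle, the P stalk and the paralogues with their standard proteins; of each pathway list, the 3 of smallest p. Other genes were named after their values were seen. The members and all lists were chosen with earlier results of these data known. GENCODE M21 on GRCm38 gave coordinates, transcript lengths and GC content (GC for 99.7% of tested genes), and RefSeq on GRCm38.p6 gave the start-site sequences.

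Alternatives were other pseudocounts (0.1 and 5 TPM), no filter or one at 5 TPM, 4 other scalings, removal of GC or length trends (loess, span 0.5), other variance models, weights per library, a block for the replicate number, and leaving out each library. Summing each member with its -ps rows was added after seeing the data. The values of 1 member and 1 related gene are not reported here.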

Additional observations from a re-analysis of the deposited data

How the results depend on the processing

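The 0 members called lower with rMANF stayed 0 under every alternative tried, and those called higher became 1, Rpl22l1, with library weights, where 737 of all genes were called. With the replicate number as a block (replicate block) 3 of all genes and 0 members were called. The same-numbered libraries did not deviate together (correlations -0.0694, 0.0291 and 0.0495). This showed no pairing by the labels' numbers, though 3 pairs cannot exclude one, and the block is given here only. Leaving out 1 library at a time gave 0 to 4 calls among all genes (4 without vehicle replicate 1, 2 without rMANF replicate 1). Members wholly above vehicle numbered 1 after median-of-ratios scaling, 22 with the length trend removed and 12 to 19 with 1 library left out. Members wholly below numbered 2 after rescaling without the members, 1 with the length trend removed and 5 to 11 with 1 library left out. The shares over all genes were not counted under these alternatives, so a shift of the whole table cannot be told from one of the members. Leaving out a library can only keep or raise such counts. With the length trend removed the median difference was 0.0680 and the log2 ratio of summed TPM 0.0911. The median was -0.03 after median-of-ratios scaling and -0.01 to 0.05 with 1 library left out. The causes were not tested.

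Of 31 named members, 23 kept their sign under all alternatives tried and 8, all with a difference near 0 or a low level, did not. Rps21 was -0.0377 after median-of-ratios scaling, -0.0422 after quantile scaling, -0.0169 without mitochondrial and haemoglobin genes, -0.00836 with the GC trend removed, -0.0105 with library weights and -0.0798 to 0.0730 with 1 library left out. Rplp2 was -0.0327 and -0.0309 after the median-of-ratios and quantile scalings, -0.0119 without mitochondrial and haemoglobin genes, -0.0509 with the GC trend removed and -0.0986 to 0.173 with 1 library left out. Rpl5 was 0.0117 after rescaling without the members, 0.0664 and 0.0256 with the GC and length trends removed, 0.0321 with library weights and -0.0470 to 0.0585 with 1 library left out. Rpl7l1 was 0.00803 after rescaling without the members, 0.0173 and 0.0289 with the GC and length trends removed, and -0.0667 to 0.0241 with 1 library left out. Rps4l was 0.163 with library weights and -0.491 to 0.121 with 1 library left out. Rpl22 was 0.0109 with the GC trend removed, 0.0317 with library weights and -0.0679 to 0.0314 with 1 library left out. With the length trend removed Rps27 was 0.0198 and Rplp0 was 0.0102. Of 31 other named genes, 1 changed sign, Bbc3, at -0.0874 with the GC trend removed. With library weights 12 of these 31 members and 31 other genes passed the threshold, Rpl22l1 among them, beside 5.73% of all genes. Many of them were named for a small p, so a higher share among them follows from that choice. Without depth, low members such as Rps4l and Rpl3l have no counting error to set beside their spread, and 3 libraries per group limit every comparison.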
